A study of Sus scrofa with 8 samples.

Results

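The receptors through which circulating hormones and nerve-derived catecholamines act on islet cells were examined in islets from neonatal pigs. Of 9 receptors listed (ADRA2A, GLP1R, SSTR2, GHSR, GHR, PRLR, LEPR, INSR and ESR1), 7 had a probe set on the Affymetrix porcine GeneChip whose annotation gives that symbol alone, and together they had 9 of the 23999 probe sets that are not controls. A probe set is a family of short probes to 1 transcript, read out as 1 intensity. GLP1R and SSTR2 were not matched to a probe set and are not analysed here. Probe sets were taken by gene symbol and not by any measured value, but the receptors were listed with earlier results of these data known. Islets of 4 pigs labelled 7 days of age were set against islets of 4 pigs labelled 3 days of age, with 1 array per pig. All the pigs were male Duroc/Large white crosses, and all islets were collagenase-isolated and cultured with glucose, nicotinamide and the phosphodiesterase inhibitor isobutylmethylxanthine, which raises cyclic AMP. The age is that of the donor, and every measurement follows culture with this inhibitor. Each preparation holds all the cell types that survived isolation and culture, so fewer cells of a type and less RNA per cell cannot be told apart.

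Hormone receptors on islet cells fall into a few signalling classes. Receptors coupled to inhibitory G proteins, such as the alpha-2A adrenergic receptor and the somatostatin receptors, lower cyclic AMP and restrain insulin release, whereas the GLP-1 receptor raises cyclic AMP and promotes it. The receptors for growth hormone, prolactin and leptin belong to the cytokine receptor class and signal through Janus kinases (JAK) and STAT transcription factors. The insulin receptor is a tyrosine kinase, and estrogen receptor alpha is a nuclear receptor that regulates transcription.

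The islet label was checked on the hormones INS, GCG, SST and PPY, which were bright in every array, with intensities of 19881 to 34490 under the 7-day-old label and 16863 to 31928 under the 3-day-old label. The 20th percentile of an array, used here as a mark of dim signal, lay between 26.4 and 31.3, and the median between 171.6 and 178.5. Differences are the mean log2 intensity under the 7-day-old label minus that under the 3-day-old label, tested by limma's moderated test with Benjamini-Hochberg adjustment over all 21574 probe sets tested, at a threshold of 0.05. Of these probe sets 10.7% passed, 5.21% as higher and 5.47% as lower. At 1 probe set per gene, 12.2% of 6545 genes passed, 5.03% as higher and 7.15% as lower. The count of 2305 probe sets past the threshold fell to 1008 without 7-day-old replicate 2, and by over 1.5 times also without 7-day-old replicates 1 and 4 or 3-day-old replicates 2 and 3 (1021 to 1413).

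ADRA2A was the only receptor of the 7 to pass, and it was higher under the 7-day-old label. ADRA2A encodes the alpha-2A adrenergic receptor, through which noradrenaline and adrenaline suppress insulin secretion. Its probe set had intensities of 205, 225, 237 and 307 in 7-day-old replicates 1 to 4, and of 120.2, 54.4, 90.4 and 144 in 3-day-old replicates 1 to 4. The lowest array of the 7-day-old label thus lay above the highest of the 3-day-old label. The mean intensity was 243 ± 44.4 under the 7-day-old label and 102 ± 38.9 under the 3-day-old label (SD, n = 4 each). The log2 difference was 1.32 (standard error 0.302, limma adjusted p = 0.0341), a fold of 2.50 with a 95% interval of 1.54 to 4.07. This direction follows the deposited labels and opposes the study, which lists ADRA2A among genes lower in islets of its older pigs. It is not alone in this: CAV1, NPY, RGS5, GRK5, NEUROD1 and TTR also run opposite to the direction that the study lists. So do PECAM1 (log2 difference -1.70), CDH5 (-1.41), DCN (-2.05), STMN2 (-1.52) and CPB1 (-1.56), which the study lists as higher in its older pigs. PCSK2 (1.11), which it lists as lower under the name PC2, is also opposite. Of the genes named here that the study also lists, none runs in the listed direction. The sources used here do not settle which labels are exchanged, and every sign given here rests on the deposited ones. If the deposited labels are the exchanged ones, every sign is reversed.

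**Figure D1:**
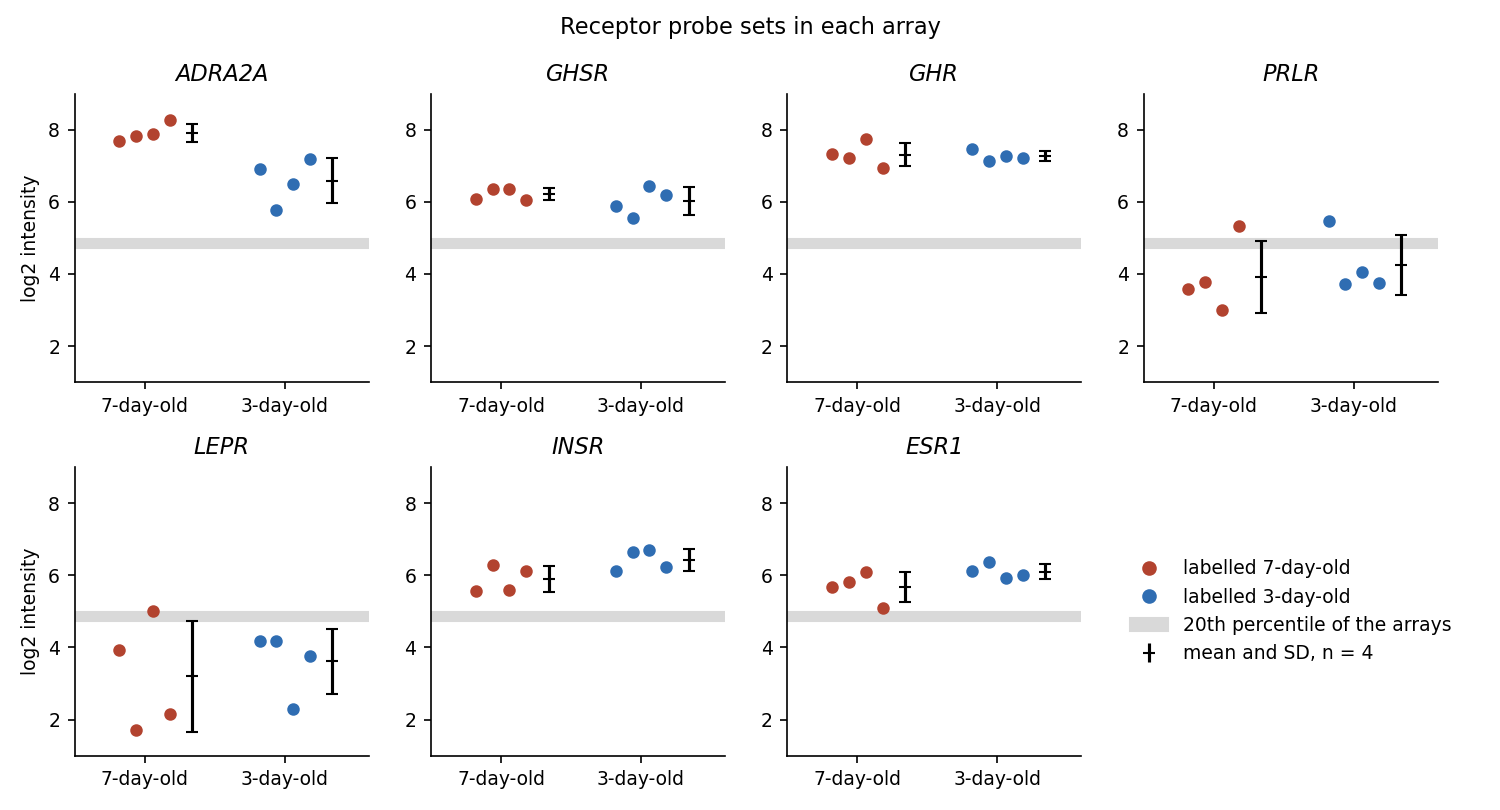
Log2 intensity (vertical axis) of the brightest probe set of each of the 7 receptors, 1 point per array, with the 7-day-old label left of the 3-day-old label in each panel, and the mean with SD (n = 4) as a bar beside the points. The grey band is the range of the 20th percentile over the 8 arrays; the labels do not overlap in ADRA2A and overlap in the other 6, and PRLR and LEPR lie below the band in most arrays.

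The ADRA2A signal was moderate within these arrays. It reached the median of the array in all 4 arrays of the 7-day-old label and in 0 of 4 of the 3-day-old label, and lay above the 20th percentile in all 8. The SD of its log2 intensity was 0.25 under the 7-day-old label and 0.61 under the 3-day-old label, where replicate 2 was lowest. Without that array the log2 difference was 1.05 and the gene still passed (limma adjusted p = 0.0429), as it did without 3-day-old replicate 4 (limma adjusted p = 0.0283). When any of the other 6 arrays was omitted it did not pass, with limma adjusted p of 0.0526 to 0.0843 and log2 differences of 1.20 to 1.43.

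GHSR, the receptor for the stomach hormone ghrelin, was the other G protein-coupled receptor measured, and no difference was detectable. Its intensities were 67.9, 81.6, 82.1 and 66.2 in 7-day-old replicates 1 to 4, and 59.1, 47.1, 87.0 and 72.3 in 3-day-old replicates 1 to 4. The labels overlapped, since the 3-day-old label held both the lowest and the highest array. The log2 difference was 0.19 (standard error 0.196, limma adjusted p = 0.571), and the 95% interval of the fold ran from 0.834 to 1.57. All 8 arrays lay above the 20th percentile and 0 reached the median. Its ligand gene GHRL was dim, with 18.5 ± 14.3 under the 7-day-old label and 14.4 ± 6.11 under the 3-day-old label (SD, n = 4 each), and reached the 20th percentile in 2 arrays.

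GHR, the growth hormone receptor, was nearly level between the labels. Its intensities were 160.4, 149, 213 and 123 in 7-day-old replicates 1 to 4, and 175, 140.2, 153 and 148 in 3-day-old replicates 1 to 4. Both the highest and the lowest array carried the 7-day-old label, replicates 3 and 4. The log2 difference was 0.04 (standard error 0.172, limma adjusted p = 0.900), and the 95% interval of the fold was 0.781 to 1.36. IGF1, the growth factor that growth hormone induces in liver, had 74.4 ± 13.3 under the 7-day-old label and 104 ± 25.6 under the 3-day-old label by its brightest probe set (SD, n = 4 each), which did not pass (log2 difference -0.47, limma adjusted p = 0.180). Of its dimmer probe sets, 1 had a log2 difference of 1.05 that did not pass and the other passed at -0.57 (limma adjusted p = 0.0428).

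PRLR, the prolactin receptor, and LEPR, the leptin receptor, gave signals too dim to compare. PRLR read 12.0, 13.6, 8.04 and 40.1 in 7-day-old replicates 1 to 4, and 44.0, 13.2, 16.7 and 13.4 in 3-day-old replicates 1 to 4. It was high in 1 array of each label, and only those reached the 20th percentile. Its log2 difference was -0.33 (limma adjusted p = 0.760), with a 95% interval of the fold from 0.314 to 2.02. LEPR read 15.2, 3.28, 31.9 and 4.48 in 7-day-old replicates 1 to 4, and 18.3, 18.3, 4.92 and 13.5 in 3-day-old replicates 1 to 4. Only 7-day-old replicate 3 reached the 20th percentile of its array. Its log2 difference was -0.41 (limma adjusted p = 0.783), with a 95% interval of the fold from 0.210 to 2.70.

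INSR, the insulin receptor, had 3 probe sets, of which the brighter pair had lower means under the 7-day-old label without passing the test. The brightest read 47.5, 77.7, 48.3 and 68.9 in 7-day-old replicates 1 to 4, and 68.8, 100.3, 104 and 74.7 in 3-day-old replicates 1 to 4. The labels overlapped between 68.8 and 77.7. The log2 difference was -0.53 (standard error 0.218, limma adjusted p = 0.162, unadjusted p = 0.0421), a fold of 0.691 with a 95% interval of 0.486 to 0.983 that is not adjusted for the number of tests. The next probe set, which the annotation ties to the same transcript record, read 40.5, 20.96, 22.5 and 42.0 in 7-day-old replicates 1 to 4, and 49.4, 31.4, 58.5 and 40.2 in 3-day-old replicates 1 to 4. Replicates 2 and 3 of the 7-day-old label lay below all other arrays, and the log2 difference was -0.55 (standard error 0.301, limma adjusted p = 0.287). Both replicates also lay below the 20th percentile of their arrays, which limits what this probe set can show. The last probe set reached the 20th percentile in 0 arrays, with values of 1.14 to 14.6 under the 7-day-old label and 1.41 to 4.56 under the 3-day-old label, and was not tested.

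ESR1, estrogen receptor alpha, did not pass. Its intensities were 50.7, 55.9, 68.2 and 34.3 in 7-day-old replicates 1 to 4, and 68.9, 83.1, 60.6 and 63.9 in 3-day-old replicates 1 to 4. Replicate 3 of the 7-day-old label fell within the range of the other label and the other 3 lay below it. The log2 difference was -0.44 (standard error 0.216, limma adjusted p = 0.236), a fold of 0.739 with a 95% interval of 0.522 to 1.05. PGR, the progesterone receptor and a classical estrogen target, reached the 20th percentile in 1 array.

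**Figure D2:**
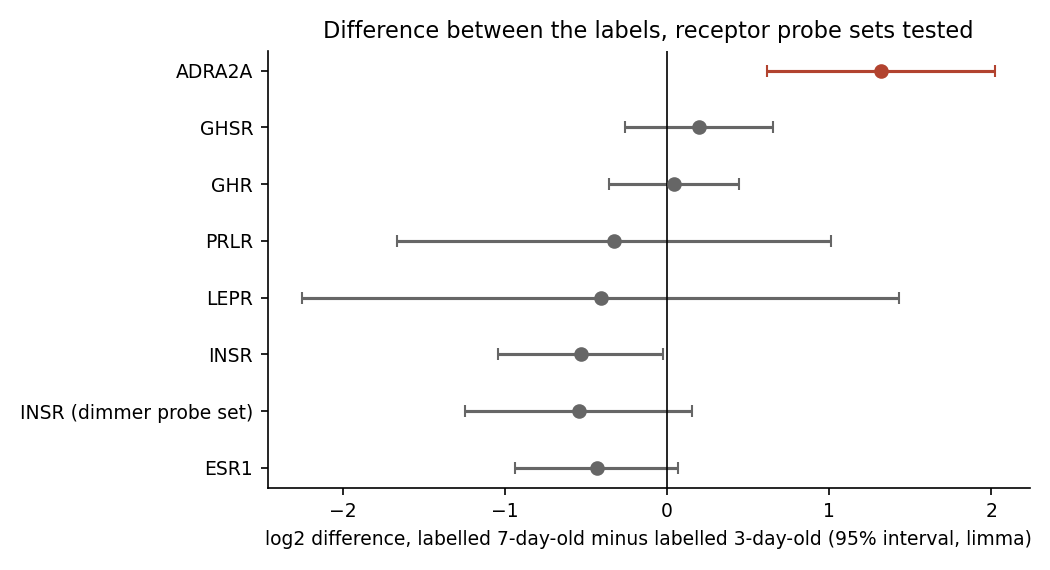
Log2 difference (horizontal axis, 7-day-old label minus 3-day-old label) of the 8 receptor probe sets tested, with the 95% interval from limma, not adjusted for the number of tests; n = 4 arrays per label. ADRA2A (red), at 1.32, passed the adjusted threshold, the others did not, and the intervals of PRLR and LEPR are the widest.

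Among the 8 receptor probe sets tested 1 passed, beside 10.7% of all probe sets, and 1 of 7 receptors is 14.3%, beside 12.2% of all genes. The labels did not overlap in 1 of the 8, beside 21.2% of all probe sets tested. These shares are near the background and are no result about the receptors as a set. The median log2 difference of the 7 receptors was -0.33, beside -0.02 over all genes. This median is the value of PRLR, whose signal was too dim to compare, so it shows no shift of the receptors. By their brightest probe set 5 receptors (ADRA2A, GHSR, GHR, INSR and ESR1) reached the 20th percentile in all 8 arrays. Their log2 differences were 1.32, 0.19, 0.04, -0.53 and -0.44 in that order, with that of GHR in the middle. Whether ADRA2A differed more than another receptor was not tested.

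The 3 genes whose log2 profile lay nearest to that of ADRA2A, among 9534 probe sets compared, were PPP1R1A, RHOB and TRA2B. Their root mean square distances from it, over the centred log2 values of 8 arrays, were 0.192, 0.206 and 0.208 in that order. PPP1R1A, an inhibitor of protein phosphatase 1 that the cyclic AMP-dependent kinase activates, had intensities of 3350, 2580.1, 3295 and 4379 in 7-day-old replicates 1 to 4, and of 2003, 1000.1, 1425 and 2245 in 3-day-old replicates 1 to 4. As in ADRA2A, 3-day-old replicate 2 was the lowest array and 7-day-old replicate 4 the highest. Its log2 difference was 1.07 and it did not pass (limma adjusted p = 0.0512). For RHOB, a small GTPase, and TRA2B, a splicing factor, the nearest probe set was not the brightest of the gene and did not pass. Their brightest probe sets had log2 differences of -0.02 for RHOB and 0.09 for TRA2B, neither of which passed, and of the other TRA2B probe sets 1 passed at 0.46.

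**Figure D3:**
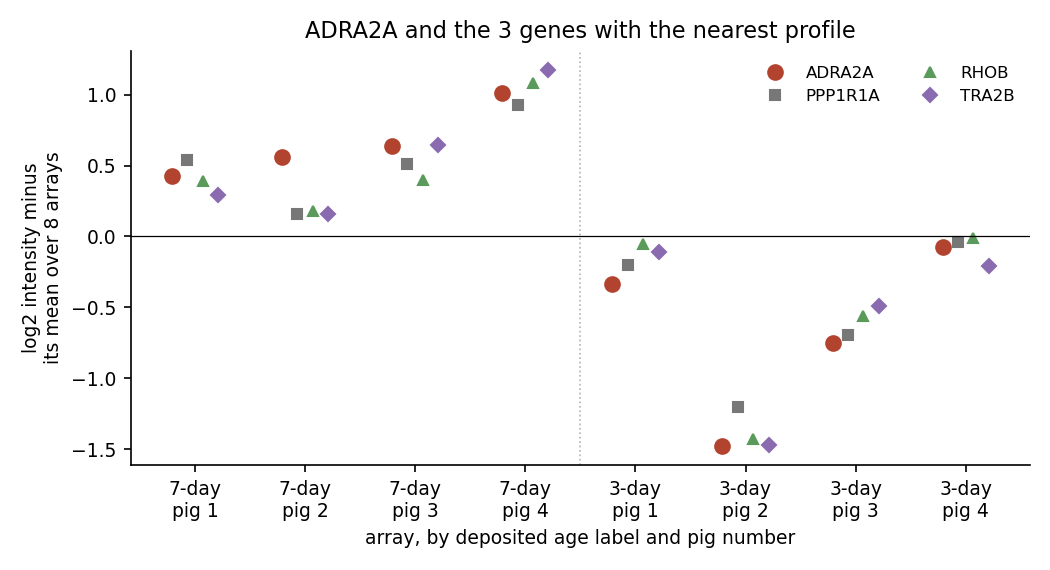
Log2 intensity minus its mean over the 8 arrays (vertical axis) of ADRA2A and of the probe sets of PPP1R1A, RHOB and TRA2B nearest to it, 1 point per gene and array, with the 7-day-old label left of the dotted line and the 3-day-old label right of it. The 3 genes were chosen for this likeness; in all 4 profiles 3-day-old replicate 2 is the lowest array and 7-day-old replicate 4 the highest.

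Genes that link G protein-coupled receptors such as ADRA2A to cyclic AMP were taken as a list, of which 30 of 64 could be tested. Of these, 3 passed as higher and 4 as lower, together 23.3%, beside 12.2% of all genes (5.03% higher and 7.15% lower). The list's median log2 difference was 0.15, beside -0.02 over all genes. GNAI1, an inhibitory G protein alpha subunit of the class that ADRA2A couples to, had 3026 ± 382 under the 7-day-old label and 1660.3 ± 453 under the 3-day-old label (SD, n = 4 each), a log2 difference of 0.89 (limma adjusted p = 0.0285). It passed without 3-day-old replicate 4 but not when any of the other 7 arrays was omitted (highest limma adjusted p = 0.0764). GNB5, a G protein beta subunit, had 739 ± 65.7 under the 7-day-old label and 433 ± 58.2 under the 3-day-old label (SD, n = 4 each), a log2 difference of 0.78 (limma adjusted p = 0.0117), and its other probe set passed at 0.68. PKIA, an inhibitor of the cyclic AMP-dependent kinase, had a log2 difference of 0.71 (limma adjusted p = 0.0193), and lost the call if 7-day-old replicate 2 was omitted (limma adjusted p = 0.0578).

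The 4 lower genes of this list were RGS5, RGS10, GNG11 and GRK5. RGS5 and RGS10 speed the inactivation of G proteins, GNG11 is a G protein gamma subunit and GRK5 a kinase that desensitises receptors. RGS5, which is also a pericyte marker, had 618 ± 125 under the 7-day-old label and 1642 ± 255 under the 3-day-old label (SD, n = 4 each), a log2 difference of -1.42 (limma adjusted p = 0.0067). The log2 differences of RGS10, GNG11 and GRK5 were -1.36, -0.99 and -0.97. RGS10 lost the call in 3 of the fits that omitted an array, those without replicate 2 of the 7-day-old label or replicates 2 or 3 of the 3-day-old label (highest limma adjusted p = 0.0558). The count over the list was 4 without 7-day-old replicate 2, and 11 with an intensity trend and robust variances. The inhibitory subunit GNAI2 and the stimulatory subunit GNAS each had a log2 difference of 0.11, and neither passed.

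**Figure D4:**
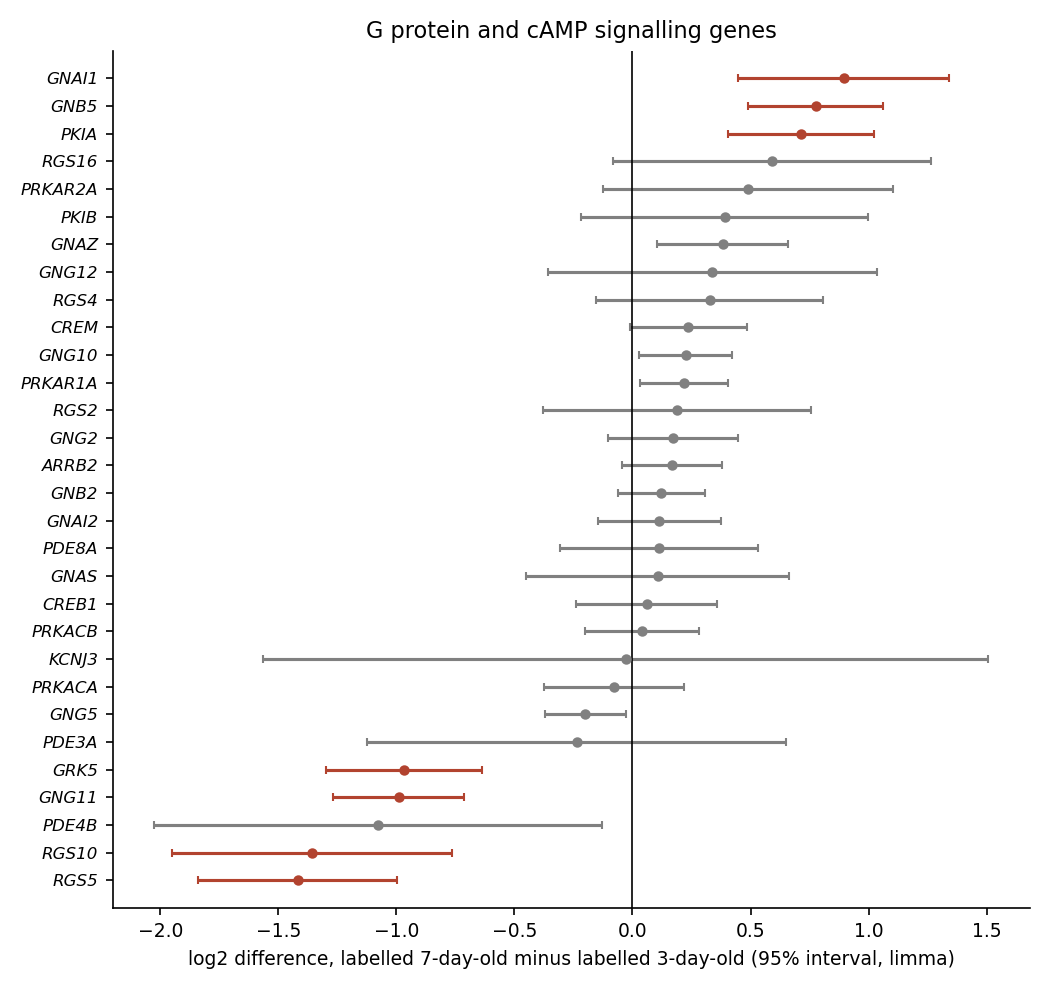
Log2 difference (horizontal axis, 7-day-old label minus 3-day-old label) of the 30 tested genes of G protein and cyclic AMP signalling, 1 probe set per gene, with the 95% interval from limma, not adjusted for the number of tests; n = 4 arrays per label. Red genes passed the adjusted threshold, 3 to the right of 0 (GNAI1, GNB5, PKIA) and 4 to the left (GRK5, GNG11, RGS10, RGS5).

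A list of hormones and other ligands, with the enzymes that make or clear them, gave 20 tested genes. Of these, 2 passed as higher and 2 as lower, with a median log2 difference of -0.04. The list is wider than the ligands of the receptors examined, since it also holds NPY, GAL and PPY, which act on other receptors. The share was 20%, beside 12.2% of all genes. DDC, which decarboxylates DOPA to dopamine on the way to the catecholamines, had 3526 ± 233 under the 7-day-old label and 2246 ± 494 under the 3-day-old label (SD, n = 4 each), a log2 difference of 0.68 (limma adjusted p = 0.0423). MAOA, which degrades noradrenaline, had 656 ± 72.8 under the 7-day-old label and 891 ± 80.1 under the 3-day-old label (SD, n = 4 each), a log2 difference of -0.44 (limma adjusted p = 0.0486). DPP4, the peptidase that inactivates GLP-1, had 981 ± 217 under the 7-day-old label and 446 ± 205 under the 3-day-old label (SD, n = 4 each), a log2 difference of 1.21 (limma adjusted p = 0.0448). MAOA lost the call whichever array was omitted, and DDC and DPP4 kept it only without 3-day-old replicate 4. NPY, a neuropeptide of sympathetic nerves that is also made in islets, had 215 ± 80.4 under the 7-day-old label and 705 ± 173 under the 3-day-old label (SD, n = 4 each), a log2 difference of -1.77 (limma adjusted p = 0.0190). The count of 4 fell to 0 when replicate 2 or replicate 3 of the 3-day-old label was omitted. The hormones INS, GCG, SST and PPY had log2 differences of -0.07, -0.19, 0.08 and 0.19, none of which passed.

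Of 24 other hormone and transmitter receptors tested, 1 passed, which is 4.17%, beside 12.2% of all genes. This was IGF2R, the mannose 6-phosphate receptor that clears insulin-like growth factor 2, with 127 ± 15.1 under the 7-day-old label and 235 ± 27.2 under the 3-day-old label (SD, n = 4 each), a log2 difference of -0.89 (limma adjusted p = 0.00809). It passed whichever array was omitted. Of the adrenergic receptors, ADRB1 had a log2 difference of -0.07 and ADRB3 of -0.44. Of the somatostatin receptors, SSTR1 had 0.07, SSTR3 had -0.24 and SSTR5 had -0.35, with 0.97 for the dimmer probe set of SSTR5. IGF1R, the receptor most closely related to INSR, had 0.01. None of these passed. SSTR3 reached the 20th percentile in only 2 arrays and the brighter probe set of SSTR5 in 4, which limits what they can show.

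Downstream of the cytokine-class receptors, 0 of 16 JAK and STAT pathway genes passed in limma, beside 12.2% of all genes. Over so few genes this is no result about the pathway. The unadjusted p was under 0.05 for 5 of the 16 genes, and 0 passed the methods' t-test. With the stricter filter, with the intensity trend, with all probe sets of a gene averaged, or without 3-day-old replicate 1 or 4, limma's count was 1. STAT3 came nearest, with 2085 ± 125 under the 7-day-old label and 2702 ± 271 under the 3-day-old label (SD, n = 4 each), a log2 difference of -0.37 (limma adjusted p = 0.0599). STAT5A and STAT5B, the main mediators of prolactin and growth hormone, had log2 differences of 0.02 and 0.17 by their brightest probe sets and did not pass. The dimmer probe sets of STAT5A had 0.39 and -0.87 and that of STAT5B had 0.09, none of which passed. Of 13 genes that respond to these hormones or to estrogen 2 passed, which is 15.4%, beside 12.2% of all genes. FOXM1, a cell cycle transcription factor, was higher (log2 difference 0.52, limma adjusted p = 0.0363) and IGFBP5, an insulin-like growth factor binding protein, was lower (log2 difference -0.81, limma adjusted p = 0.0447). FOXM1 lost the call whichever array was omitted, and IGFBP5 kept it only without 7-day-old replicate 4.

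Of 15 genes of insulin receptor signalling, 2 passed as lower and 0 as higher, with a median log2 difference of -0.21. The share of 13.3% is near the 12.2% of all genes. The count was 1 without the filter or by the methods' t-test, and 4 with the stricter filter or the intensity trend. ENPP1, an ectoenzyme that can bind the insulin receptor and dampen its kinase, had 952 ± 180.1 under the 7-day-old label and 1821 ± 52.9 under the 3-day-old label (SD, n = 4 each), a log2 difference of -0.95 (limma adjusted p = 0.00853), and passed whichever array was omitted. GAB1, a docking adaptor, had -0.46 (limma adjusted p = 0.0478) and kept the call only without 3-day-old replicate 4. FOXO1, the transcription factor that insulin signalling keeps out of the nucleus, had 0.39 and did not pass (limma adjusted p = 0.0583).

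Of 12 coregulators and chaperones of nuclear receptors such as ESR1, 1 passed, which is 8.33%, beside 12.2% of all genes. This was FKBP4, a chaperone partner of steroid receptors (log2 difference 0.40, limma adjusted p = 0.0384), and it kept the call only without 7-day-old replicate 3. Of 15 genes of receptor maturation and trafficking, 2 passed, both lower and both whichever array was omitted. The share of 13.3% is near the 12.2% of all genes, and the count was 4 with the stricter filter and 5 with the intensity trend. CAV1, the main protein of caveolae, had a log2 difference of -1.50 (limma adjusted p = 0.00469), and its dimmer probe sets had -0.86 and -0.53 and did not pass. RAMP1, a partner that sets the ligand choice of calcitonin-family receptors, had -1.01 (limma adjusted p = 0.0183). LEPROT, which shares the LEPR locus in humans, had 0.07 and did not pass.

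Markers of several cell types that the preparations can hold differed between the labels, where 12.2% of all genes passed. Of 17 endocrine markers tested, 7 were higher and 0 lower (41.2%), with a median log2 difference of 0.53 and summed intensities of 186258 to 225324 under the 7-day-old label and 153529 to 195764 under the 3-day-old label. Of 15 fibroblast and stellate markers 7 were lower (46.7%, median -0.74), with sums of 46911 to 53381 under the 7-day-old label and 64383 to 83933 under the 3-day-old label. Of 12 endothelial markers 5 were lower (41.7%, median -1.02), with sums of 1136 to 1432 under the 7-day-old label and 2218 to 2746 under the 3-day-old label. Of 8 pericyte and smooth muscle markers 4 were lower (50.0%, median -0.84), with sums of 2218 to 2694 under the 7-day-old label and 3642 to 5027 under the 3-day-old label. Of 6 neural and Schwann markers 3 were lower (50.0%), with sums of 6420.4 to 7906 under the 7-day-old label and 7162 to 10424 under the 3-day-old label. Of 11 duct markers 3 were lower (27.3%), with sums of 64024 to 68596 under the 7-day-old label and 71539.9 to 79273 under the 3-day-old label. Of 12 leukocyte markers 1 was lower (8.33%), with sums of 403 to 566 under the 7-day-old label and 570.4 to 1235 under the 3-day-old label. The leukocyte count was 0 by the methods' t-test, and 0 without any array but 7-day-old replicates 2 or 4. Only 3 of the 12 leukocyte markers reached the 20th percentile in all 8 arrays. The sums of the fibroblast, endothelial, pericyte, duct and leukocyte lists did not overlap between the labels, whereas those of the endocrine and neural lists did. Of 9 acinar markers 1 was lower (11.1%), and the sums of 21233 to 44713 under the 7-day-old label and 37383 to 46451 under the 3-day-old label overlapped. Of 8 adipocyte and hepatocyte markers, at 1 probe set per gene, 0 passed in limma or by the methods' t-test, and 1 had a limma p under 0.05 before adjustment. For TF, transferrin, the brighter probe set had a log2 difference of -1.11 and did not pass. Its dimmer one, which the study lists as ICA, passed at -1.40 (limma adjusted p = 0.0102). For that list limma's count was 1 with the stricter filter, with array weights, with all probe sets of a gene averaged or without 7-day-old replicate 4, and the sums of 4931 to 11325 under the 7-day-old label and 9164 to 12416 under the 3-day-old label overlapped. No tested marker was at the floor of 1 in any array, and the leukocyte gene PTPRC reached the 20th percentile in 1 array. The endocrine count was 4 without 7-day-old replicates 1 or 2 or 3-day-old replicates 1 or 3, the fibroblast count 4 without any array but 3-day-old replicate 1, and the endothelial count 3 without 7-day-old replicate 2 or 3-day-old replicates 2 or 3. The duct count fell to 1 without 7-day-old replicates 1 or 2 or 3-day-old replicates 3 or 4, and the neural count to 1 without any array but replicate 4 of either label. The part of these markers in the difference of ADRA2A, and in those of the signalling genes, was not tested.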

How the data were processed

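RNA of cultured islets was hybridised by the authors to the porcine GeneChip. The paper describes a further amplification round for samples with little starting cRNA, without naming the arrays it covered. Its effect on dim probe sets was not tested. The deposited values are linear intensities of 24123 probe sets, with trimmed means of about 500.1 in every array. No summarising software is named in the sources read. Intensities below 1 (1528 values) were set to 1 and put on the log2 scale. Probe sets at or above their array's 20th percentile in 1 or more arrays were kept, without 124 controls. Symbols came from the platform annotation (1 symbol for 10069 probe sets, several for 198, none for 13732), updated for the other lists through RefSeq gene IDs (Sscrofa11.1). Positions and sequences are not given. A gene with several probe sets is represented by that with the highest mean log2 intensity.

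Labels were compared by limma 3.58.1 (R 4.3.3, two-sided, no covariates), after the fit was tested on simulated data. Nothing says more of how the pigs were related. Each p-value sets the difference between the labels against the spread between these arrays within a label. The number of arrays limits the precision (median standard error 0.169 on the log2 scale). The members and lists were chosen with earlier results of these data known. Named by rule were all receptor probe sets, up to 4 genes of each list past the threshold by size (2 of the brightest where none passed) and the 3 nearest profiles of a receptor that passed. Not all are printed, and other genes were picked after their values were seen. Alternatives were no filter, a stricter filter (50th percentile in 4 arrays), the methods' t-test, an intensity trend with robust variances, median centring, quantile normalization, array weights, an offset of 16, the pig number as a block, leaving out each array and, for lists, the mean over a gene's probe sets. Plots used Python 3.11.15 and matplotlib 3.10.9.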

Additional observations from a re-analysis of the deposited data

Results flagged for a closer look

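On the log2 scale no receptor probe set held an array that stood apart from the other 3 of its label by Dixon's criterion. On the intensity scale PRLR did, with 44.0 in 3-day-old replicate 1 and 13.2 to 16.7 in the others of that label. Of 104 groups tested on the log2 scale, over the receptors and other named genes, 6 did, and chance alone flags about 1 in 20. STAT3 had 2297 in 3-day-old replicate 1, below the 2816 to 2863 of the other 3 arrays of its label. GNG11 had 3803 in 3-day-old replicate 3, above the 2879 to 2933 of the others. RAMP1 had 98.7 in 7-day-old replicate 3, below the 137 to 144 of the others, and 353 in 3-day-old replicate 2, above the 229 to 239.6 of the others. SCG3, a granin, had 1399 in 7-day-old replicate 3, below the 1658 to 1691 of the others. LAPTM5, a lysosomal protein of leukocytes, had 343 in 3-day-old replicate 1, above the 199.6 to 217 of the others.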

How the results depend on the processing

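ADRA2A kept its sign in all 17 alternatives and its call in 9. Its log2 difference of 1.32 did not pass by the methods' t-test (adjusted p = 0.0611) or with the pig number as a block (limma adjusted p = 0.0748), and it ran from 1.05 to 1.52 as single arrays were omitted. Equal pig numbers showed no pairing (correlations of residuals from -0.0135 to 0.00487). With the number as a block 0 probe sets passed in limma, and 5264 had an unadjusted p under 0.05. Without the block limma gave 2305 and 6017 in that order. By the methods' t-test, also without the block, 2125 passed. The count of 2305 was 3491 with an intensity trend and robust variances, and 1008 to 1854 as single arrays were omitted. The cause was not tested. The other receptors passed in none of their 16 alternatives, the stricter filter having removed them. With single arrays omitted, GHR ran from -0.10 (without 7-day-old replicate 3) to 0.16 and was -0.0022 without 3-day-old replicate 2, PRLR ran from -0.80 to 0.075 (without 3-day-old replicate 1), and LEPR from -1.01 to 0.086 (without 7-day-old replicate 2). PRLR and LEPR lay below the 20th percentile in most arrays, which limits what they can show.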
